A study of Mus musculus with 18 samples.

Results

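The brain endothelium and the blood-brain barrier were followed through 10 of their genes, Vwf, Sox17, Slco1a4, Cldn5, Pecam1, Tek, Slc2a1, Abcb1a, Gkn3 and Mfsd2a, across 3 brain regions of mice given the dopaminergic neurotoxin MPTP or saline. The 10 genes were taken by symbol, with every probe set annotated to each of them, which gave 15 of the 45101 probe sets on the array and 10 of its 18194 genes. All mice were male C57BL/6J animals of 14 weeks. MPTP was injected intraperitoneally at 30 mg/kg each day for 5 days, control mice received saline by the same route, and brains were taken 4 days after the last dose. Frontal cortex, striatum and midbrain were dissected, and each region gave 3 arrays for MPTP and 3 for saline, so that 18 arrays formed 6 groups of 3. Each treatment had 3 mice, taken by random assignment, so the regions of a treatment share mice. The labels number the arrays of a group 1 to 3 as biological replicates and do not say that a number stands for the same mouse in the 3 regions. The tissue was not sorted, so a lower or higher value cannot tell a change in the number of endothelial cells from a change in their RNA.

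The endothelial cells of brain capillaries are joined by tight junctions and carry transporters that select what passes between blood and brain, which together make the blood-brain barrier. Astrocyte end-feet and pericytes surround these vessels, and the endothelium itself differs along its length, with arterial, capillary and venous zones that carry different markers. In the MPTP model the toxin itself crosses this barrier before glial cells convert it to the compound that dopaminergic neurons take up.

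Levels are given as log2 values of the deposited expression summaries, and a difference of 1 is a change of 2-fold. Array medians lay between 5.14 and 5.21, and arrays within a group correlated at 0.991 to 0.997. Genes that define the tissues stood highest in the region that the label names, for 3 of 3 cortical, 4 of 4 striatal and 5 of 5 midbrain genes. In the midbrain the dopamine-synthesis gene Th read 8.97, 8.92 and 8.64 in saline and 8.09, 8.04 and 7.94 in MPTP arrays, a difference of -0.82 with an adjusted p of 0.133. All 10 members passed the filter on dim genes, a mean of at least 5.18 in at least 1 region, and no array of the probe sets used fell below it. Where a gene had several probe sets, the one with the highest mean over the 18 arrays stands for it. Genes were called at an adjusted p under 0.05 by limma with Benjamini-Hochberg adjustment over 11741 genes.

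Counts of called members differed by region. The members and the gene lists below were chosen with earlier results of these data known. Their counts beside the share of all genes are therefore a description and no test of an excess. In the striatum 3 of the 10 rose (Vwf, Sox17 and Slco1a4) and none fell, where 2.1% of all tested genes were called in either direction and 1.29% were called higher. In the midbrain 2 rose (Sox17 and Slc2a1) and none fell, beside 2.54% of all genes called and 2.15% called higher. In the frontal cortex limma called 0 of the 10, beside 0.0681% of all genes (8 genes, with 720 of the 11741 at an unadjusted p under 0.05), and 3 members (Vwf, Slco1a4 and Gkn3) had an unadjusted p under 0.05 there. The mean over the 3 regions, which draws on the same arrays, gave 4 rises (Vwf, Sox17, Slco1a4 and Slc2a1) and 1 fall (Gkn3), beside 9.04% of all genes called, 6.61% higher and 2.43% lower. The median difference of the 10 was 0.14 in cortex, 0.08 in striatum and 0.16 in midbrain, against medians over all genes of 0.04, -0.03 and 0.03. Over the regions the calls thus went in both directions, with 4 rises and 1 fall. The junction gene Cldn5 (0.04) and the adhesion gene Pecam1 (0.10) were not called over the regions. Members were not tested against each other.

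**Figure D1:**
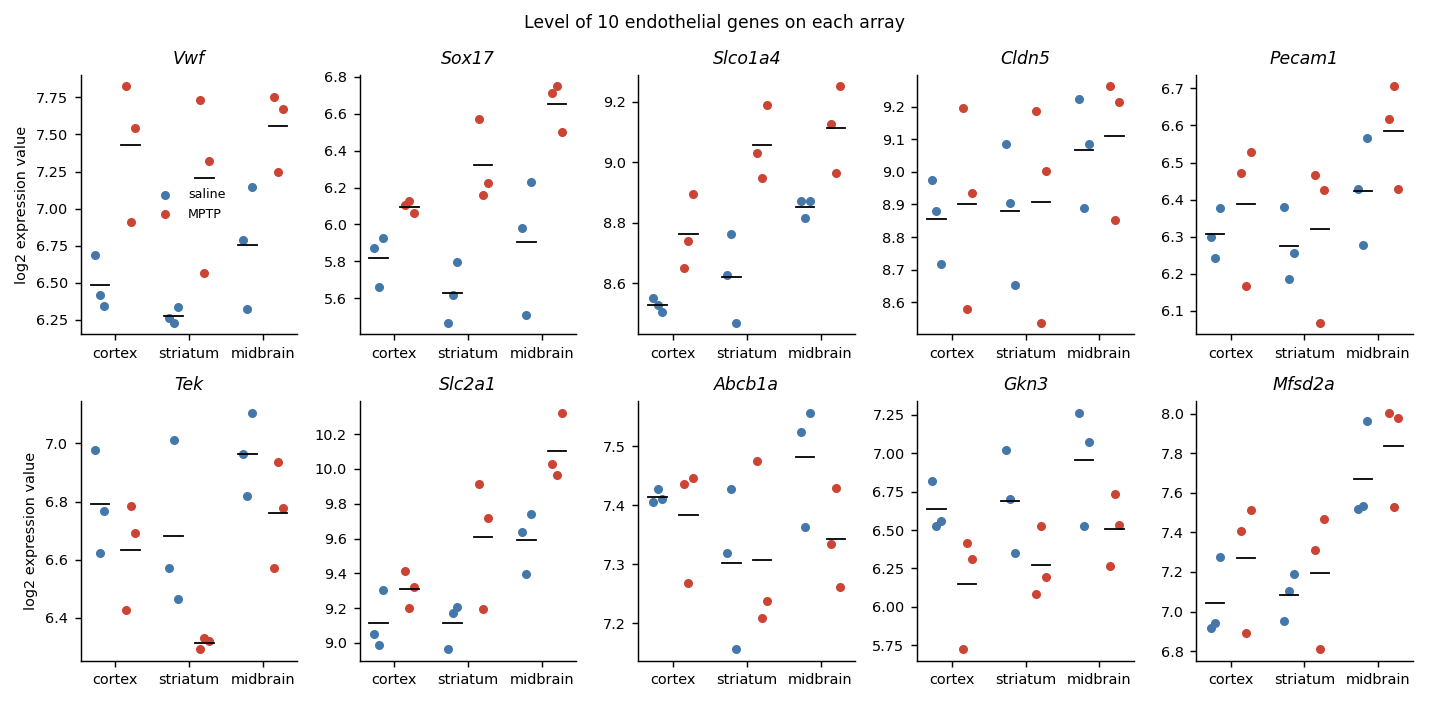
Log2 expression value (y axis) of the probe set used for each of the 10 genes on each of the 18 arrays, by region (x axis) and treatment, with the group mean of 3 arrays as a bar. MPTP and saline arrays do not overlap in any region for Vwf, Sox17 and Slco1a4, and overlap in every region for Cldn5 and Pecam1.

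Vwf encodes von Willebrand factor, a clotting glycoprotein that endothelial cells store in granules and that platelets also carry. In saline arrays it read 6.69, 6.42 and 6.34 in frontal cortex, 6.26, 6.23 and 6.33 in striatum and 6.79, 6.32 and 7.15 in midbrain. After MPTP it read 7.82, 6.91 and 7.54 in cortex, 7.73, 6.57 and 7.32 in striatum and 7.75, 7.25 and 7.67 in midbrain. Every MPTP array thus stood above every saline array of its region, and the spread was larger among MPTP arrays in cortex (SD 0.47 against 0.18) and striatum (0.59 against 0.05) but not in midbrain (0.27 against 0.41). The difference was 0.94 in cortex (SE 0.24, adjusted p = 0.230), 0.93 in striatum (SE 0.24, adjusted p = 0.0369) and 0.81 in midbrain (SE 0.24, adjusted p = 0.0673). Over the regions it was 0.89 (SE 0.14, adjusted p = 0.000347), or 1.86-fold. The striatal call was lost without MPTP array 1 or 3 or without any 1 of the 3 saline arrays, with adjusted p from 0.0891 to 0.184, and also without the intensity trend of the variances (0.0787) or with probe sets averaged per gene (0.0806). The cortical value was called when the cortex arrays were fitted alone (adjusted p = 0.0262), as was the midbrain value when the midbrain arrays were (adjusted p = 0.00367).

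Sox17 encodes a SOX-family transcription factor of arterial endothelium. Its probe set 1429177_x_at read 5.87, 5.66 and 5.93 in saline cortex and 6.11, 6.12 and 6.06 after MPTP. In striatum the values were 5.47, 5.62 and 5.80 against 6.16 to 6.57, and in midbrain 5.98, 5.51 and 6.23 against 6.50 to 6.75. The groups did not overlap in any region, and the smallest gap was in cortex. The difference was 0.28 in cortex (adjusted p = 0.841), 0.69 in striatum (SE 0.15, adjusted p = 0.0173) and 0.75 in midbrain (SE 0.15, adjusted p = 0.0111), and 0.57 over the regions (SE 0.09, adjusted p = 0.000347). The second probe set of Sox17, 1421657_a_at, showed none of this: its values ran from 5.51 to 6.40 in saline and from 5.61 to 6.26 in MPTP arrays, overlapped in every region and differed by 0.09, -0.0029 and 0.04 in cortex, striatum and midbrain. Names ending in _x_at mark probe sets in which some probes can match other transcripts, so the rise is that of 1 of the 2 probe sets of the gene. The striatal call was lost without saline array 1 or 2 or MPTP array 1 (adjusted p = 0.0709, 0.0612 and 0.1004), and the midbrain call without saline array 2 or MPTP array 3 (0.0576 and 0.0551).

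Slco1a4 encodes an organic anion transporter on both faces of the capillary endothelium. Saline arrays read 8.55, 8.53 and 8.50 in cortex, 8.63, 8.76 and 8.47 in striatum and 8.87, 8.82 and 8.87 in midbrain. MPTP arrays read 8.65, 8.74 and 8.90, then 9.03, 8.95 and 9.19, then 9.13, 8.96 and 9.25 in the same regions. Again no MPTP array overlapped the saline arrays of its region, with smaller distances than for Vwf. The difference was 0.24 in cortex (adjusted p = 0.720), 0.44 in striatum (SE 0.09, adjusted p = 0.0130) and 0.26 in midbrain (adjusted p = 0.125), and 0.31 over the regions (SE 0.05, adjusted p = 0.000855). Without saline array 3 or MPTP array 3 the striatal adjusted p was 0.0837 and 0.0638.

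Slc2a1 encodes GLUT1, the glucose transporter of the barrier, which astrocytes also make in another glycosylated form. In midbrain its brightest probe set read 9.64, 9.40 and 9.74 in saline and 10.03, 9.97 and 10.32 in MPTP arrays, and the groups stood apart. In striatum it read 8.96, 9.17 and 9.21 against 9.91, 9.19 and 9.72, so that MPTP array 2 lay among the saline arrays. Cortex gave 9.05, 8.99 and 9.30 against 9.41, 9.20 and 9.32, with overlap. The difference was 0.20 in cortex (adjusted p = 0.883), 0.49 in striatum (SE 0.14, adjusted p = 0.0565) and 0.51 in midbrain (SE 0.14, adjusted p = 0.0417). The mean over regions was 0.40 (SE 0.08, adjusted p = 0.00248). Vwf and Slco1a4 have no second probe set, so among the members that rose only Sox17 and Slc2a1 could be compared between probe sets. Over the regions all 3 probe sets of Slc2a1 were called, at 0.30, 0.28 and 0.40, where 5.43% of all probe sets were called. The midbrain call did not hold without saline array 2 or 3 or MPTP array 1 or 3, with adjusted p from 0.0647 to 0.289, and without MPTP array 2 the striatal difference was 0.70 (adjusted p = 0.00234).

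Gkn3 was the member that fell; it encodes gastrokine 3, a secreted protein that serves as a marker of arterial and arteriolar brain endothelium. Saline arrays read 6.82, 6.52 and 6.56 in cortex, 7.02, 6.70 and 6.35 in striatum and 7.26, 6.53 and 7.07 in midbrain. MPTP arrays read 5.73, 6.41 and 6.31 in cortex, 6.09, 6.53 and 6.20 in striatum and 6.26, 6.73 and 6.53 in midbrain. The groups stood apart in cortex and overlapped in striatum and midbrain. The difference was -0.49, -0.42 and -0.45 in the 3 regions, none called (adjusted p = 0.735, 0.276 and 0.239), and -0.45 over the regions (SE 0.11, adjusted p = 0.0138), or 1.37-fold lower. Its second probe set, 1438648_x_at, differed by -0.36, -0.36 and -0.04, and by -0.25 over the regions (adjusted p = 0.0994). The fall over the regions was not called without striatum saline array 2 (adjusted p = 0.0602), without saline array 1 in every region (0.0835), without MPTP array 1 in every region (-0.31, 0.106) or without MPTP array 3 in every region (0.0538).

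The sequence before the start of 3 of the 5 called genes was at hand in RefSeq's GRCm38.p6 annotation and is printed because the gene of a SOX factor was itself among those that rose. The 250 bases before the start are shown 5′ to 3′ on the strand of the gene, except that for Slco1a4 the 64 of them that lie inside the annotated gene were left out. Capitals mark the SOX core motif, ACAAT or its reverse complement ATTGT.
Slco1a4 (chr6:141856285-141856470, minus strand): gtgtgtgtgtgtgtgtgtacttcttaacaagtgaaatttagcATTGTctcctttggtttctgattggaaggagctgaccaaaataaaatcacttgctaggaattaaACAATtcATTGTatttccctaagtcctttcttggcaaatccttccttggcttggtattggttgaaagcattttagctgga
Slc2a1 (chr4:119108495-119108744, plus strand): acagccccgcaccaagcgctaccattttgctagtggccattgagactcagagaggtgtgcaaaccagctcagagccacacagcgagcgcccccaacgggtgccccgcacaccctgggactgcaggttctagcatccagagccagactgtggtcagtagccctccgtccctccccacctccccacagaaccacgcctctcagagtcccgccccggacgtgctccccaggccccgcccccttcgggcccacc
Gkn3 (chr6:87388936-87389185, minus strand): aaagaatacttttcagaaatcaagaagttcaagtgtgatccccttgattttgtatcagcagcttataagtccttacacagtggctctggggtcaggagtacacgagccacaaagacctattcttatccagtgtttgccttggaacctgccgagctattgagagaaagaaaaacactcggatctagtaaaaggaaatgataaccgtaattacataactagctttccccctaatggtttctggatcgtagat

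The Slco1a4 window held 3 matches to the SOX core, which occurs in 22.1% of 32851 promoter windows of the same length. The windows of Slc2a1 and Gkn3 held 0 matches, against 27.7% of windows of their length. On both strands together, the ETS core GGAA matched 4 times in the Slco1a4 window, 3 times in that of Gkn3 and 0 times in that of Slc2a1, and at least 1 match is found in 87.3% of windows of 186 bases and 93.4% of windows of 250 bases. Gkn3 also had 3 matches to GATA and 2 to the forkhead core TGTTT, Slco1a4 had 0 and 1, and Slc2a1 had neither. A match to such short letters describes the window and is not a bound site.

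Tek encodes TIE2, the endothelial receptor for angiopoietins. In striatum it read 6.57, 7.01 and 6.47 in saline and 6.29, 6.33 and 6.32 in MPTP arrays, with no overlap. In cortex (6.62 to 6.98 against 6.43 to 6.79) and midbrain (6.82 to 7.11 against 6.57 to 6.94) the groups overlapped. Tek did not pass the threshold in any region or over the regions: the differences were -0.16, -0.37 (adjusted p = 0.167) and -0.20, and -0.24 over the regions (95% interval -0.41 to -0.08, adjusted p = 0.0576). The value over the regions was called without cortex saline array 2, striatum saline array 3, midbrain saline array 2 or midbrain MPTP array 2 (adjusted p from 0.0276 to 0.0445), and after a second quantile normalization (0.0214) or centring on array medians (0.0477).

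Cldn5 encodes claudin 5, the main claudin of the endothelial tight junction, and Pecam1 the adhesion molecule CD31, found on all endothelium. Cldn5 read 8.97, 8.88 and 8.72 in saline cortex against 9.20, 8.58 and 8.93 after MPTP, 9.08, 8.90 and 8.65 against 9.19, 8.54 and 9.004 in striatum, and 9.22, 8.89 and 9.09 against 9.26, 8.85 and 9.21 in midbrain. In each region both the lowest and the highest value came from MPTP arrays, and the means lay within 0.05 of each other. Pecam1 read 6.30, 6.24 and 6.38 against 6.47, 6.17 and 6.53 in cortex, 6.38, 6.19 and 6.26 against 6.47, 6.07 and 6.43 in striatum, and 6.43, 6.28 and 6.57 against 6.62, 6.71 and 6.43 in midbrain, and its groups overlapped as well. The difference over the regions was 0.04 with a 95% interval of -0.15 to 0.22 for Cldn5 and 0.10 with an interval of -0.05 to 0.25 for Pecam1. As fitted, both intervals end below the differences measured for Vwf, Sox17, Slco1a4 and Slc2a1, and they include smaller differences in either direction. The fit counts arrays of the same treatment and number almost as separate replicates, so both intervals may be too narrow. Averaged over the regions by number, Cldn5 ran from 8.82 to 9.09 in saline and from 8.66 to 9.21 after MPTP. Leaving out arrays gave differences from -0.08 to 0.20 for Cldn5 and from 0.05 to 0.15 for Pecam1. The intervals therefore do not settle whether either gene rose as much as the called members.

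Mfsd2a encodes a lipid transporter of barrier endothelium that carries docosahexaenoic acid. It read 6.92, 6.94 and 7.28 against 7.41, 6.89 and 7.51 in cortex, 6.95, 7.10 and 7.19 against 7.31, 6.81 and 7.47 in striatum and 7.52, 7.54 and 7.96 against 8.01, 7.53 and 7.98 in midbrain. MPTP arrays 1 and 3 were above MPTP array 2 in each region, and the groups overlapped. The difference was 0.23, 0.11 and 0.17 in the 3 regions and 0.17 over them (95% interval -0.04 to 0.37), none called.

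Abcb1a encodes P-glycoprotein, the efflux pump of the luminal membrane, and its 2 probe sets did not move alike. The brighter, 1419759_at, read 7.16 to 7.56 in saline and 7.21 to 7.47 in MPTP arrays, overlapped in every region and differed by -0.05 over the regions (95% interval -0.17 to 0.06). The dimmer, 1419758_at, read 5.26, 5.47 and 5.33 against 5.92, 5.66 and 5.77 in striatum and 5.76, 5.56 and 5.81 against 5.89, 6.20 and 6.18 in midbrain. On it every MPTP array stood above every saline array in these 2 regions, while cortex gave 5.76, 5.59 and 5.64 against 5.63, 5.62 and 5.69. Its difference was -0.02 in cortex, 0.43 in striatum (adjusted p = 0.0979) and 0.38 in midbrain (adjusted p = 0.112), and it was called over the regions at 0.26 (adjusted p = 0.0215). No value for Abcb1a as a gene can be given that does not depend on this choice.

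**Figure D2:**
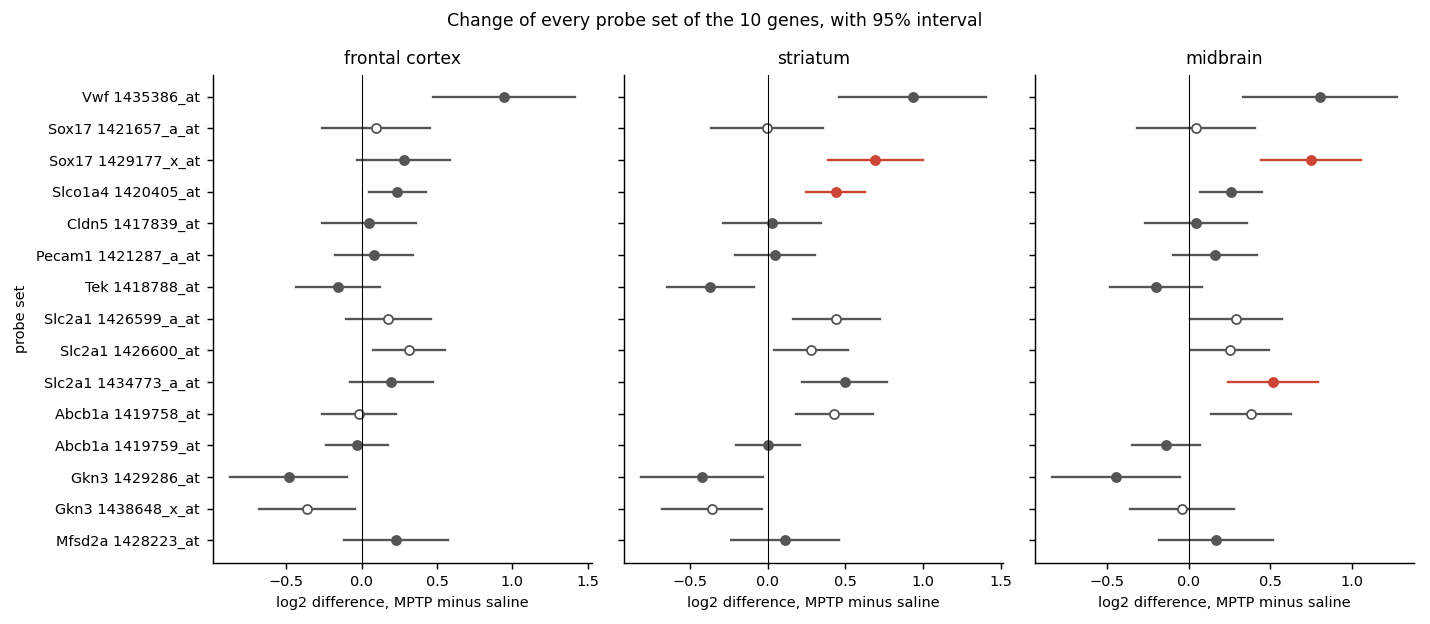
Log2 difference between MPTP and saline (x axis) with its 95% interval for each of the 15 probe sets (y axis) in the 3 regions, from the fit over all 45101 probe sets. Filled points are the probe sets that stand for their gene, open points the others, and red marks an adjusted p under 0.05; the 2 probe sets of Sox17 and the 2 of Abcb1a differ visibly in striatum and midbrain.

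When every probe set was tested on its own over the whole array, 0 of the 15 were called in cortex, 2 in striatum (Sox17 1429177_x_at and Slco1a4) and 2 in midbrain (Sox17 1429177_x_at and Slc2a1 1434773_a_at), beside 0.0532%, 0.741% and 1.72% of all probe sets. The fit in cortex left 3 members and 5 of the 15 probe sets with values below 0, and the midbrain fit left 3 and 4.

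Whether the response differed between regions was tested as an interaction. Limma called 0 of the 10 members in each of the 3 comparisons of regions, beside 0.0596% of all genes for striatum against cortex, 0% for midbrain against cortex and 0.0681% for midbrain against striatum. At an unadjusted p under 0.05 there was 1 member, Sox17, whose response was 0.47 larger in midbrain than in cortex (95% interval 0.03 to 0.91, adjusted p = 0.982). Its response in striatum exceeded that in cortex by 0.41 (95% interval -0.02 to 0.85). For Vwf the response in striatum minus that in cortex was -0.01 with an interval of -0.70 to 0.67. The calls in striatum and midbrain and their absence in cortex are therefore not shown to be a difference between regions.

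Several members followed the array number within the MPTP groups. MPTP array 2 was the lowest of its 3 in all 3 regions for 4 of the 10 genes, Vwf, Cldn5, Slc2a1 and Mfsd2a, and MPTP array 1 was the highest in all 3 for Vwf and Cldn5. Tek and Gkn3 ran the other way, with array 1 the lowest and array 2 the highest in all 3 regions. Saline arrays had such orders too: array 1 was the highest in all 3 regions for Cldn5 and Gkn3, array 3 for Sox17, Slc2a1 and Mfsd2a, and array 2 was the lowest for Pecam1. Without MPTP array 2 in every region the mean over regions was 1.14 for Vwf (adjusted p = 4.57e-07), 0.51 for Slc2a1 (7.32e-05) and 0.35 for Mfsd2a (0.0115), which was not called with all arrays, and 0.20 for Cldn5 (0.106). Without MPTP array 1 in every region Vwf was at 0.71 (0.00249) and Slc2a1 at 0.35 (0.0135). With 1 mean over the regions for each treatment and number, 3 against 3, MPTP and saline values did not overlap for Vwf (6.32 to 6.61 in saline, 6.91 to 7.77 in MPTP), Sox17, Slco1a4, Slc2a1, Tek and Gkn3, and Vwf had an adjusted p of 0.00279.

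**Figure D3:**
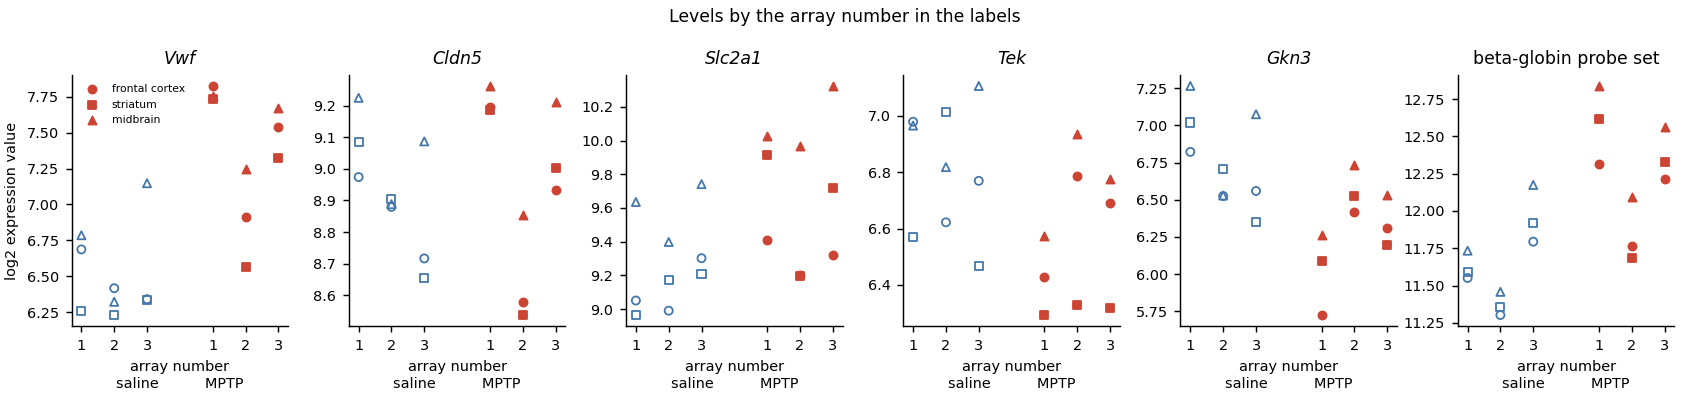
Log2 expression value (y axis) of 5 genes and of the beta-globin probe set by the array number of the labels (x axis), with open symbols for saline and filled symbols for MPTP and a marker shape for each region. For Vwf, Cldn5 and beta-globin the MPTP arrays run from array 1 (highest) to array 2 (lowest) in each region, and for Tek and Gkn3 array 2 is the highest.

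The globin probe sets were higher after MPTP and had the array order of Vwf within the MPTP groups. Few platelet and red blood cell genes could be tested, and 0 of them were called. The 4 probe sets that name several adult globin genes, RNA carried by red blood cells, were looked at after the values of the members were seen. The beta-globin probe set read 11.55, 11.30 and 11.79 in saline and 12.32, 11.77 and 12.21 in MPTP cortex, 11.59, 11.36 and 11.92 against 12.62, 11.68 and 12.33 in striatum, and 11.73, 11.46 and 12.17 against 12.84, 12.09 and 12.56 in midbrain. MPTP array 2 was the lowest and MPTP array 1 the highest in every region, the order of Vwf and Cldn5, and the groups overlapped in each region through MPTP array 2. Over the regions all 4 globin probe sets rose, by 0.49 to 0.72 (adjusted p from 0.000683 to 0.00337), beside 5.43% of all probe sets called. In midbrain 2 of the 4 did (1.72% of all), and limma called 0 of the 4 in cortex (0.0532%) and striatum (0.741%). Of the red blood cell list, Alas2, the haem-synthesis enzyme of erythroid cells, was the one gene tested and was 0.53 higher over the regions (adjusted p = 0.0643), while the probe sets naming Hba-a1, Hba-a2 and Slc4a1 alone were below 5.18 on all arrays. Of 4 tested platelet genes 0 were called by limma in any region or over the regions, and Gp1bb alone had an unadjusted p under 0.05 over the regions, at -0.18. With 9.04% of all genes called over the regions, 0 of 4 is not apart from the share of all genes. The part of blood in the values of Vwf and the other members was not tested.

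Other genes of endothelial identity that passed the filter, 19 of the 30 listed, had a few rises. Podxl, which encodes the sialomucin podocalyxin of the vessel lumen, read 7.15, 7.24 and 7.14 in saline striatum and 7.97, 7.36 and 7.95 after MPTP. Adgrl4, an adhesion receptor of endothelium, read 6.76, 7.03 and 6.91 against 7.77, 7.12 and 7.43 there. Both stood apart from saline in all 3 regions and both were lowest on MPTP array 2. Podxl rose by 0.59 over the regions (SE 0.08, adjusted p = 0.000241) and Adgrl4 by 0.54 (SE 0.08, adjusted p = 0.000300), and both were also called in striatum and midbrain. The VEGF receptor gene Flt1 rose by 0.28 over the regions (adjusted p = 0.0151). The other 16 were not called, the median of the 19 was 0.08 over the regions, and 9.04% of all genes were called.

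Of 21 tested transporters of the barrier other than the members, 4 rose and 1 fell over the regions, beside 6.61% of all genes called higher and 2.43% called lower. Abcc4, an efflux pump for organic anions and cyclic nucleotides, rose by 0.49 (adjusted p = 0.00399) and in midbrain by 0.67 (adjusted p = 0.0424), where it read 5.96, 5.92 and 6.18 in saline and 6.94, 6.58 and 6.53 in MPTP arrays. The efflux pump gene Abcg2 rose by 0.28 and the insulin receptor gene Insr by 0.22, while the organic anion transporter gene Slc22a8 fell by 0.32 over the regions. Lrp8, a lipoprotein receptor, fell by 0.42 in striatum (adjusted p = 0.0242). Among 13 other junction genes 1 was called over the regions (9.04% of all genes), the catenin gene Ctnnd1, at -0.22 (adjusted p = 0.0219), and limma called 0 in each single region, with Ctnnd1 at an adjusted p of 0.0643 in striatum. The list medians over the regions were 0.04 for the transporters and 0.06 for the junction genes, against 0.01 for all genes.

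Few genes of the vascular zones were called, beside 6.61% of all genes called higher over the regions. Of 10 tested arterial genes Mgp, the matrix Gla protein, rose by 0.45 (adjusted p = 0.00715) and the Notch ligand gene Jag1 by 0.38 (adjusted p = 0.00724) over the regions, and of the venous genes Flrt2 rose, by 0.20. The venous genes Lrg1 and Lcn2, which the list of endothelial activation shares, were called as well, but both were below 5.18 on all saline arrays and passed the filter only through MPTP arrays, so that they had to differ and are not counted as a change of either list. Both are made by other cells too, and no other gene of the activation list was called over the regions. Lcn2, which encodes the iron-siderophore carrier lipocalin 2, read 3.48 to 3.68 in saline cortex and 8.18, 4.46 and 8.19 after MPTP, 3.38 to 3.77 against 7.59, 4.11 and 7.71 in striatum, and 3.59 to 3.81 against 8.49, 4.78 and 8.66 in midbrain. All MPTP arrays stood above saline, but MPTP array 2 was far below the other two and, like all saline arrays, under the filter value of 5.18. Lrg1, a secreted leucine-rich glycoprotein, was 1.42 higher over the regions (adjusted p = 0.000259) and was also lowest on MPTP array 2. Leukocyte adhesion genes of activated endothelium gave no readable level: Sele, Selp and Icam1 lay below 5.18 on all arrays, as did 9 of the 19 listed activation genes on the array.

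Few genes of the signalling lists around the members were called, beside 9.04% of all genes over the regions and 2.1% in striatum. Over the regions their counts were near the share of all genes. Of 10 tested genes of the angiopoietin and VEGF pathways, which include the ligands of Tek, Flt1 alone was called over the regions. Of 14 tested genes of the Wnt pathway that sets barrier properties, Reck, a co-receptor component for Wnt7 ligands, rose by 0.25 over the regions (adjusted p = 0.0335) and Tnfrsf19 by 0.31 in striatum (adjusted p = 0.0429). Foxf2, Foxq1, Lrp5 and Tspan12 of that list lay below 5.18 on all arrays.

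**Figure D4:**
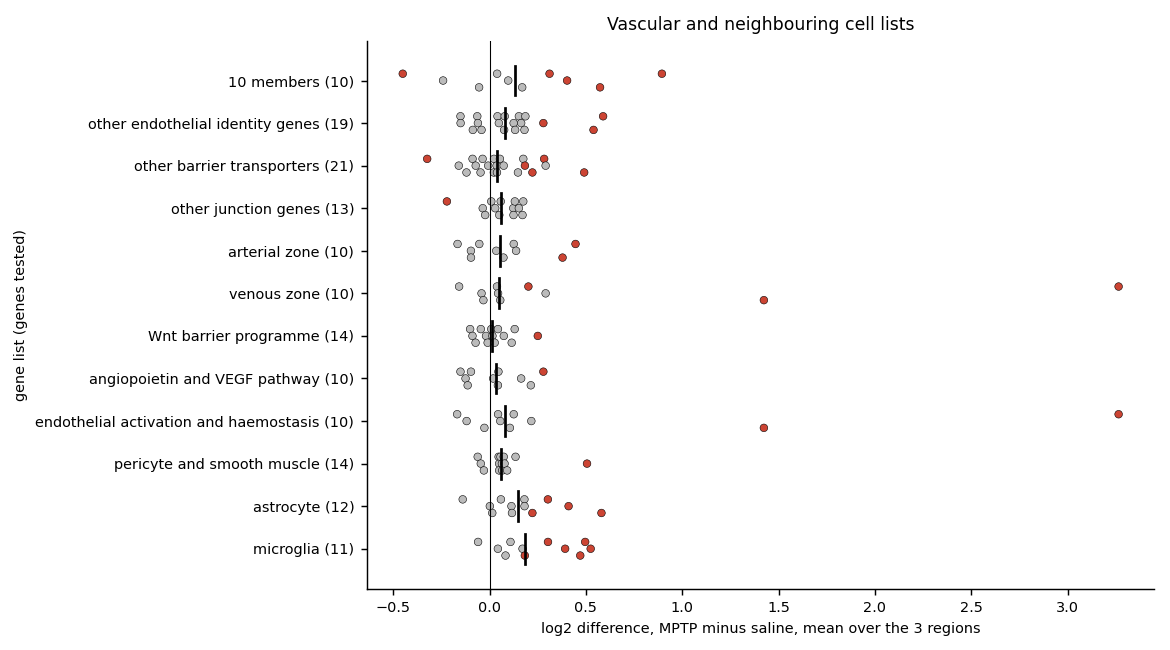
Log2 difference between MPTP and saline as the mean over the 3 regions (x axis) for each tested gene of 11 lists and for the 10 members (y axis, number tested in brackets), with called genes in red and the list median as a bar. The list medians lie between 0.01 and 0.18, and the points to the right of 1 are Lrg1 and Lcn2, which the venous and the activation list share and which passed the filter only through MPTP arrays.

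Markers of other cells were called in uneven numbers, beside 9.04% of all genes called over the regions (6.61% higher) and 2.1% in striatum (1.29% higher). Of 14 tested pericyte and smooth muscle genes Abcc9, a potassium channel subunit of pericytes, alone rose over the regions, by 0.51 (adjusted p = 0.000279), a share near that of all genes, and the mean of the list on an array ran from 6.76 to 6.87 in saline and from 6.79 to 7.04 in MPTP striatum. Of 12 astrocyte genes 4 rose over the regions and 4 in striatum, where the list mean ran from 9.06 to 9.21 in saline and from 9.29 to 9.58 in MPTP arrays. Of 11 microglial genes 6 rose over the regions and 6 in striatum, where the list mean ran from 7.89 to 7.99 and from 8.14 to 8.41. Of 11 meningeal genes, whose cells adjoin surface vessels, 2 fell over the regions (Slc6a13 and Slc47a1) and 1 in cortex, and the choroid plexus gene Ttr fell by 1.22 over the regions (adjusted p = 0.0194). Of 9 oligodendrocyte genes 5 rose in striatum, and of 10 neuronal genes Syn1 fell there, by 0.33. The part of these cells in the values of the members was not tested.

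Without MPTP, the midbrain tended to the highest levels. These comparisons use the saline arrays that also enter the comparisons with MPTP. All 10 members had a higher mean in saline midbrain than in saline cortex and than in saline striatum, with median differences of 0.24 and 0.27. Against cortex 3 of the 10 were called higher (beside 27.8% of all genes called higher and 51.3% in either direction): Mfsd2a at 0.63 (SE 0.17, adjusted p = 0.00375), Slc2a1 at 0.48 (SE 0.14, adjusted p = 0.00483) and Slco1a4 at 0.33 (SE 0.09, adjusted p = 0.00393). Against striatum the same 3 genes were called (33.4% of all genes higher, 58.2% in either direction), at 0.59, 0.48 and 0.23. The shares of called members were near those of all genes. The 3 genes encode transporters of the capillary endothelium. The transporter gene Abcb1a, by its brighter probe set, was not called, at 0.07 against cortex and 0.18 against striatum. The mean of the other barrier transporters was 7.78 in saline midbrain, 7.83 in saline cortex and 7.59 in saline striatum. Slc2a1 in midbrain, at 9.40 to 9.74, stood above every saline array of cortex (8.99 to 9.30) and striatum (8.96 to 9.21). The difference of Slco1a4 between midbrain and striatum was not called without striatum saline array 1 or 3 or midbrain saline array 1 or 3 (adjusted p from 0.0588 to 0.182). Without midbrain saline array 2, which was low for several members, 7 members were called higher in midbrain than in striatum, Vwf, Sox17, Abcb1a and Gkn3 among them. Leaving out 1 array of these groups gave 6279 to 6955 of the 11741 genes called in either direction, so most genes were called there too. Between saline striatum and cortex limma called 0 of the 10 members and none had an unadjusted p under 0.05, although 44% of all genes were called. Differences of the 10 genes between cortex and striatum thus lay within their spread, with intervals as wide as -0.69 to 0.28 for Vwf.

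**Figure D5:**
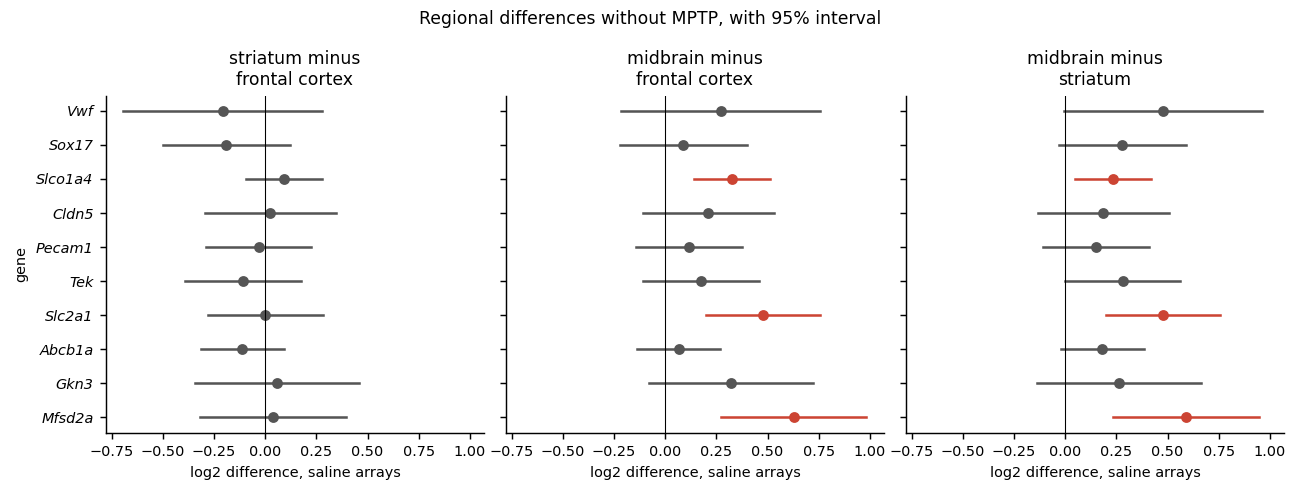
Log2 difference between regions in saline arrays (x axis) with its 95% interval for each of the 10 genes (y axis), red where the adjusted p was under 0.05. All 10 points of midbrain against cortex and of midbrain against striatum lie above 0, and Mfsd2a, Slc2a1 and Slco1a4 are called in both.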

How the data were processed

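Total RNA of 18 dissected samples was hybridised to Affymetrix mouse arrays, 1 array a sample. The authors deposited log2 values for each probe set after RMA, per the submitters' processing notes, which name no version of it. RMA includes a step that brings arrays to one distribution, so a shift of all genes could be missed. The deposited values still differed between arrays, with medians from 5.14 to 5.21 and interquartile ranges from 3.37 to 3.65. The number of arrays, 3 a group, limits the precision.

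Of 45101 probe sets, 34958 named 1 gene, 932 named more than 1 and 9211 had no entry; 34754 symbols were looked up by Entrez ID (GRCm38.p6) and 204 kept. A gene took the probe set with the highest mean over 18 arrays and was tested where a region's mean was 5.18, the 50th percentile of all values, or more. Group means of the 6 groups were compared in limma 3.58.1 (R 4.3.3) with an intensity trend and Benjamini-Hochberg adjustment within each contrast. The mean over regions had treatment and number as a random block (correlation 0.00558). With so low a correlation its p-values count arrays of 1 treatment and number almost as separate replicates. All probe sets were also fitted without a filter. The procedure was tested on simulated data for the single-region comparisons of MPTP with saline alone. The simulated noise was independent between arrays, so the mean over regions and the interactions were not covered.

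The members and gene lists were chosen with earlier results of these data known. Named genes were all 10 members with all probe sets; of each list and contrast up to 4 called genes by smallest p, else the 1 of smallest p; the 5 genes most like the members; and region markers. Alternatives were no filter or the 75th percentile, a second quantile normalization, median centring, the mean of probe sets, no trend, arrays of the compared regions alone, replicate blocks and leaving out arrays. In comparisons with MPTP the replicate block was the number, shared by saline and MPTP arrays. Between saline regions it was treatment and number. Taking 1 mean per treatment and number, leaving out a number in every region, and the globin probe sets were added after the data were seen. P-values measure the spread between arrays.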

Additional observations from a re-analysis of the deposited data

How the results depend on the processing

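Of 1720 alternative values of 100 member results, 1662 kept their side of the threshold, 31 lost a call, 27 gained one and 0 calls changed direction; 126 values that were called on neither side differed in sign. In single regions the calls rest on few arrays: leaving out 1 array of the compared groups left 1 to 4 members called in striatum (69 to 291 of all genes) and 0 to 2 in midbrain (12 to 955 genes), and 0 to 1 genes of all in cortex. Over the regions 4 to 6 members were called without 1 array (424 to 1527 genes) and also without 1 number of a treatment in every region (341 to 1090 genes, with 341 without MPTP 3 and 602 without MPTP 1). The differences between regions had 3 to 10, 0 to 10 and 7 to 14 genes called, and saline midbrain against striatum 2 to 7 members (6279 to 6955 genes). The separate probe sets of the members had 0 to 5 calls in striatum and 0 to 2 in midbrain. Calls over all probe sets were not counted under the alternatives.

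In cortex the gene count of 8 became 5 with the 75th percentile filter, 4 with a second quantile normalization, 2 with centring, 1 with the mean of probe sets, 0 without the trend, 36 with the region alone and 17 with the replicate block, and 1 member, Vwf, was called under both of the last settings (1 probe set in each as well). In striatum 247 genes became 745 (359 higher and 386 lower, against 152 and 95) with a second quantile normalization, 134 with the mean of probe sets and 162 without the trend, and members 1 with the mean of probe sets. In midbrain 298 genes became 726 (401 higher and 325 lower, against 253 and 45), 68 and 153 under the same settings. Its members became 1 without a filter, 1 with the 75th percentile, 0 with the mean of probe sets and 1 without the trend. Over the regions 1061 genes became 1979 (912 higher and 1067 lower, against 776 and 285) with a second quantile normalization, and 2 members were called with the 75th percentile filter, which tests fewer of them. For the response in striatum minus that in cortex 7 genes became 4 without a filter, 0 with the 75th percentile, 21 with quantile normalization, 4 with the mean of probe sets and 13 with the 2 regions alone. For midbrain minus striatum 8 became 3 and 22 with the percentile and quantile settings. Saline striatum against cortex had 1 member with the mean of probe sets (Abcb1a), and saline midbrain against cortex 5 with the replicate block. In the main fit 44% and 51.3% of all genes were called in these comparisons. Of the separate probe sets 5, 1 and 4 were called in striatum with quantile normalization, without the trend and with the replicate block, and in midbrain 1 with the 75th percentile, 1 without the trend and 0 with the region alone. The cause of these shifts was not tested.

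Same-numbered arrays of a treatment from 2 regions correlated above 0.1 in 11 of 18 pairs (-0.23 to 0.34, median 0.14). Differently numbered ones did so in 4 of 36 pairs (-0.27 to 0.30, median -0.06). Each of these 4 joined saline striatum array 1 to an array 2, or saline striatum array 2 to an array 1 (0.14 to 0.30). The same-numbered pairs of saline striatum arrays 1 and 2 ran from -0.23 to -0.13. Whether their numbers are exchanged was not tested. All results by number use the labels as given. Within a region the numbers were not taken to pair saline with MPTP arrays, because the treatments were given to different mice. The mean over regions has treatment and number as a random block, with a correlation of 0.00558. The number block of the alternatives nevertheless gave saline and MPTP arrays of 1 number a shared term, a pairing that the design does not give. Under that block Vwf was called in cortex (adjusted p = 0.0138) and midbrain (0.00838) and Slc2a1 in striatum (0.0136), and these calls rest on that pairing. Between saline regions the block was treatment and number. There Cldn5 and Gkn3 were called in midbrain against cortex, and Vwf in midbrain against striatum. No other member call changed with either block. With the mean of its probe sets Sox17 was not called in striatum (0.34) or midbrain (0.40).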

Other observations

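The genes whose profile was closest to the mean standardised profile of the 10 members over the 18 arrays were Mir124-2hg (Pearson r of 0.917), Ttc4, Aldoc, Ctsd and Tmem185b (0.904 or more). Among the members Mfsd2a (0.858), Slc2a1 (0.857) and Pecam1 (0.840) lay closest to that mean, and Tek (0.329) and Gkn3 (0.139) farthest from it. With the mean of each of the 6 groups removed, so that what arrays of one group share was taken out, the nearest genes were Hcfc1 (0.929), Cab39, Cxcl14, Serping1 and Ahnak (0.915 or more). These values describe the 18 arrays and were not tested.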
